A study of Mus musculus with 6 samples.

Results

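The MCM helicase and origin licensing genes Mcm2, Mcm3, Mcm4, Mcm5, Mcm6, Mcm7, Mcm10, Cdc6, Cdt1 and Gmnn were compared between Rb1L/L and Rb1+/+ mouse embryonic fibroblasts. They were picked by gene symbol from the array, where each of the 10 had exactly 1 transcript cluster, and they stand among 19938 genes with a cluster and 15462 genes bright enough to test. Rb1 encodes pRb, the retinoblastoma protein. The Rb1L/L cultures are homozygous for the L allele, an altered Rb1 known to change the cleft of pRb that takes up LXCXE motif proteins, in every cell of the embryo; the Rb1+/+ cultures carry the unaltered gene. All 6 cultures, 3 of each genotype with 1 array each, were mixed fibroblasts of E13.5 embryos, kept in medium with 10% serum to passage 4 and harvested while proliferating.

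Before a cell replicates its DNA, each future start site has to be licensed. The origin recognition complex marks the site, and Cdc6 and Cdt1 then load the ring of Mcm2 to Mcm7 onto the DNA as an inactive double helicase. Geminin, the product of Gmnn, binds Cdt1 and keeps used origins from being licensed again, and Mcm10 helps turn the loaded ring into a moving helicase. Many of these genes are textbook targets of E2F, the transcription factors that pRb holds in check, and their products are abundant in dividing fibroblasts.

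In each genotype the culture numbered 1 was male by its transcripts and the other 2 were female. Xist was at log2 5.13 and 4.79 in the replicates numbered 1 and at 11.44 or higher in the other arrays, where the Y-linked genes Eif2s3y, Kdm5d and Uty were low. The L allele is transcribed, so the level of Rb1 checks no label; Rb1 stood at log2 8.61 to 8.99 in Rb1+/+ arrays and at 8.85 to 8.99 in those of Rb1L/L. The 12 fibroblast markers averaged log2 10.92 to 11.02 in Rb1+/+ and 10.77 to 10.83 in Rb1L/L arrays, and 2 of them fell. The mean of 6 epithelial markers was 6.29 to 6.46, and those of 6 endothelial and 6 muscle markers lay between 6.15 and 6.44, against a floor for testing of 5.081. Within the endothelial list Kdr rose by 0.58 (adjusted p = 0.00663). Of the 5 tested endothelial genes it was the only 1 with an estimate above 0, and the median change of the list was -0.06. Of 7 neural markers Fabp7 fell by 0.50 (adjusted p = 0.00842) and Tubb3 fell by 0.48 (adjusted p = 0.0309, a call kept in 1 of the 6 fits without 1 array), and their mean was 7.22 to 7.39 in Rb1+/+ and 7.12 to 7.21 in Rb1L/L arrays. Of 10 macrophage and blood markers, 3 rose and 1 fell, and their mean was 6.94 to 7.37 in Rb1+/+ and 7.17 to 7.55 in Rb1L/L arrays. All 8 tested interferon-induced genes rose, with a median log2 fold change of 2.73. Over all tested genes 7.10% rose and 5.08% fell at an adjusted p under 0.05 in limma. The part of these markers in the results below was not tested.

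In Rb1L/L cultures all 6 helicase subunits and the loader Cdt1 were higher, while Mcm10, Cdc6 and Gmnn did not pass the test. The changes ran from 1.15-fold for Mcm5 to 1.77-fold for Mcm6. In limma's fit over all tested genes, 7 of the 10 members rose and none fell, at an adjusted p under 0.05; of all tested genes, 7.10% rose and 5.08% fell at that threshold. The median log2 fold change of the 10 genes, Rb1L/L minus Rb1+/+, was 0.35, and that of all tested genes was -0.02. For 9 of the 10, every Rb1L/L array was above every Rb1+/+ array, which held for 16.2% of tested genes. At an unadjusted p under 0.05 there were 9 members, and 28.7% of all tested genes; with the replicate number as a block 7 rose, and 7.99% of all. The count of 7 was 4 without Rb1L/L replicate 1, and 5 or 6 without any other array. Without both arrays numbered 1 it was 0, without both numbered 2 it was 3, and without both numbered 3 it was 5. In the same fits the genes called in either direction over all tested genes were 92, 467 and 460, against 1883 with all arrays. The members' median log2 fold change in these fits was 0.33, 0.32 and 0.41. These are bulk cultures, in which more cells in S phase and more of a transcript per cell cannot be told apart.

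**Figure D1:**
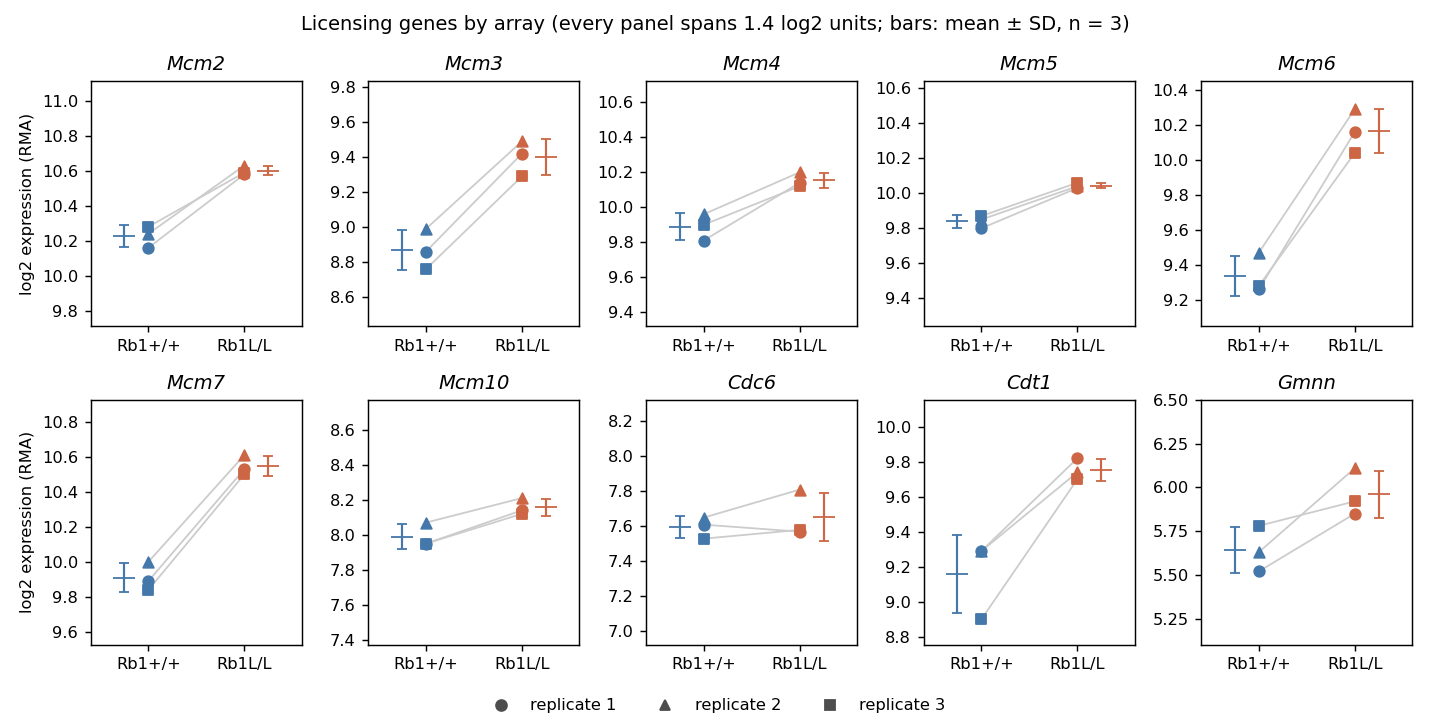
The log2 expression of each licensing gene is plotted for the 3 Rb1+/+ and 3 Rb1L/L arrays, with grey lines joining cultures of the same number and bars giving the mean and SD. Every panel spans the same number of log2 units, so slopes can be compared. All 3 lines rise in the 9 panels whose groups do not overlap, and only those of Cdc6 go both ways.

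Mcm6 changed most. Its log2 values were 9.26, 9.47 and 9.28 in the Rb1+/+ arrays and 10.16, 10.29 and 10.04 in the Rb1L/L arrays. The groups were 0.57 apart at their nearest arrays, the widest gap of the 10 genes. The log2 fold change was 0.83 (SE 0.08, 95% interval 0.63 to 1.02, adjusted p = 0.00273), rank 78 of the 15462 tested genes. By culture number the differences were 0.91, 0.81 and 0.76. Mcm6 kept the threshold in all 6 fits without 1 array, and missed it without both arrays numbered 1 (adjusted p = 0.0573).

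Mcm7 measured log2 9.89, 10.00 and 9.84 in Rb1+/+ and 10.53, 10.61 and 10.50 in Rb1L/L arrays. The Rb1L/L arrays lay at least 0.50 above the others, and the log2 fold change was 0.64 (SE 0.06, adjusted p = 0.00273). Without both arrays numbered 1 the adjusted p was 0.0562. Mcm3 had 8.86, 8.99 and 8.76 in Rb1+/+ and 9.42, 9.49 and 9.29 in Rb1L/L arrays. Again no array crossed over, and the 3 same-numbered differences of Mcm3, 0.56, 0.50 and 0.54, were nearly alike. Its log2 fold change was 0.53 (SE 0.08, adjusted p = 0.00762, or 0.107 without both arrays numbered 1).

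Mcm2 stood at log2 10.16, 10.24 and 10.28 in Rb1+/+ and at 10.58, 10.63 and 10.59 in Rb1L/L arrays. The Rb1L/L cultures were tightly grouped, and the change was 0.38 (SE 0.06, adjusted p = 0.00839), which held in all 6 fits without 1 array. It missed the threshold without both arrays numbered 1 (adjusted p = 0.104) or 2 (0.0659). Mcm4 gave 9.81, 9.96 and 9.90 against 10.14, 10.20 and 10.12, and Mcm5 gave 9.80, 9.85 and 9.87 against 10.03, 10.04 and 10.06. The groups of both genes were apart by 0.16. They had the smallest rises of the ring, 0.26 for Mcm4 (SE 0.06, adjusted p = 0.0319) and 0.21 for Mcm5 (SE 0.05, adjusted p = 0.0437, or 0.0573 with the replicate block).

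The calls of Mcm4 and Mcm5 were mostly lost once any 1 array was left out. Genes called over all tested genes also fell in those fits, from 1883 to between 622 and 1441. Mcm4 kept the threshold without Rb1+/+ replicate 2 (adjusted p = 0.0403) and missed it without Rb1+/+ replicate 1 or 3 (0.0873 and 0.071) or Rb1L/L replicate 1, 2 or 3 (0.0929, 0.108 and 0.0597). Mcm5 missed it in all 6 such fits, with adjusted p = 0.111, 0.0799 and 0.0739 without Rb1+/+ replicate 1, 2 and 3 and 0.118, 0.12 and 0.102 without Rb1L/L replicate 1, 2 and 3. Over all these fits, those without a pair included, the log2 fold change stayed between 0.22 and 0.29 for Mcm4 and between 0.18 and 0.22 for Mcm5.

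**Figure D2:**
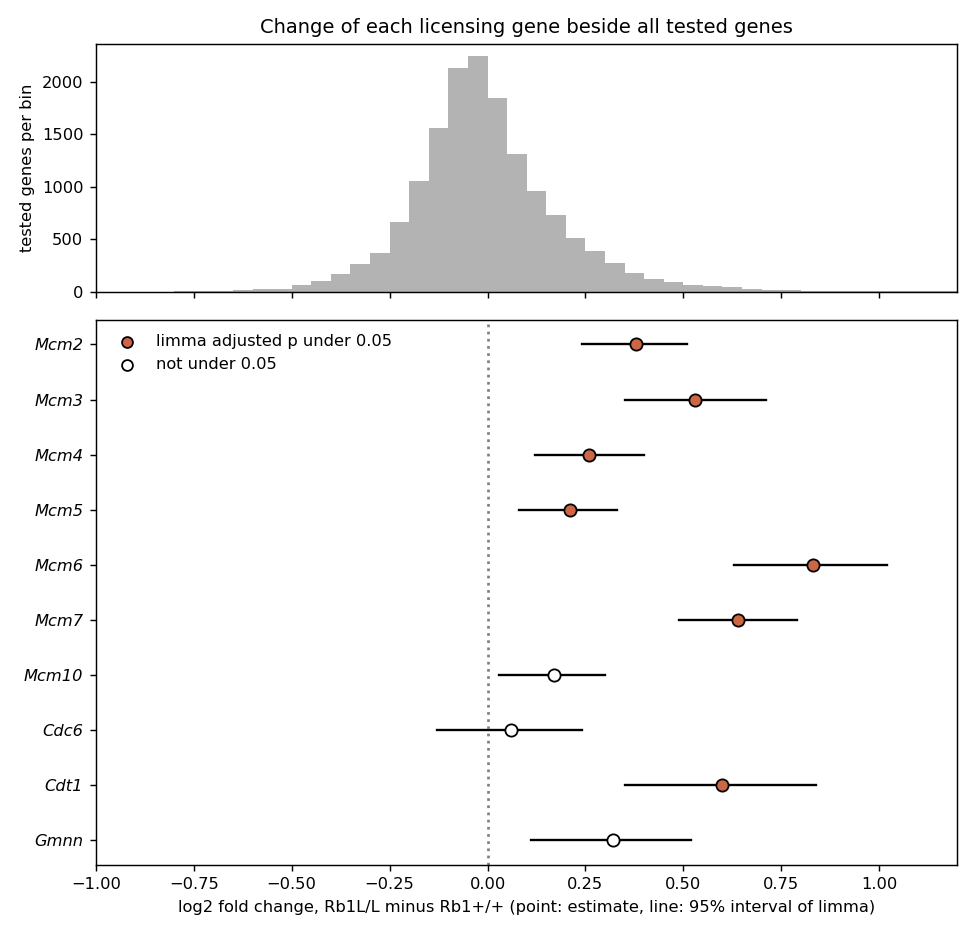
The lower panel gives each gene's log2 fold change, Rb1L/L minus Rb1+/+, with limma's 95% interval, filled where the adjusted p is under 0.05; the upper panel counts all tested genes in bins of log2 fold change on the same axis. The central 95% of all tested genes lay between -0.36 and 0.46, and Mcm6, Mcm7, Cdt1 and Mcm3 were to the right of that range.

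The log2 fold changes of the 6 subunits were then set against each other. The 95% interval of Mcm6, 0.63 to 1.02, lay wholly above those of Mcm2 (0.24 to 0.51), Mcm4 (0.12 to 0.40) and Mcm5 (0.08 to 0.33). Within each array the log2 difference between 2 subunits was taken and then compared between genotypes, which says nothing of the ratio of the transcripts; probe sets can also differ in how much of a change they show. Of the 15 pairs, 13 had differences that did not overlap between the genotypes. How often this holds for pairs of other tested genes was not computed, so the count cannot be set against a background. The pairs are built from 6 genes and are not independent. Mcm6 gained 0.62 on Mcm5, 0.57 on Mcm4 and 0.45 on Mcm2. Mcm2 against Mcm3 and Mcm4 against Mcm5 overlapped. Arrays numbering 3 against 3 cannot give an exact two-sided permutation p below 0.1, which the 13 pairs reached, and after adjustment over the 15 pairs the smallest was 0.115, so no pair passed the threshold.

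**Figure D3:**
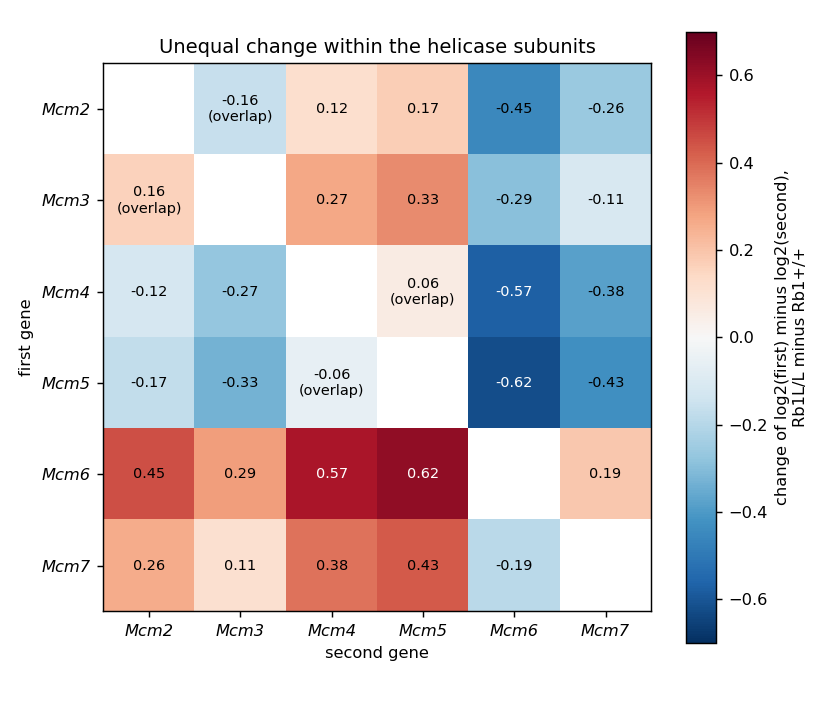
Each cell gives how much the log2 difference of the first (row) minus the second (column) helicase subunit changed from Rb1+/+ to Rb1L/L arrays, in log2 units. The row of Mcm6 is positive throughout, up to 0.62 against Mcm5, and the 2 pairs whose values overlapped between genotypes are marked.

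Cdt1, which brings the ring to the origin, had log2 values of 9.29, 9.29 and 8.90 in Rb1+/+ and 9.82, 9.74 and 9.70 in Rb1L/L arrays. All Rb1L/L arrays were higher, and the Rb1+/+ culture numbered 3 lay below its fellows. The log2 fold change was 0.60 (SE 0.11, 95% interval 0.35 to 0.84, adjusted p = 0.014), or 1.51-fold. Its adjusted p was 0.0542 without Rb1L/L replicate 1, with a change of 0.56, and 0.104 or 0.0559 once the pair numbered 1 or 2 was left out. Without Rb1+/+ replicate 3, the low array, the call held.

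Cdc6, the ATPase that loads the ring together with Cdt1, showed no such shift. It measured log2 7.61, 7.65 and 7.53 in Rb1+/+ and 7.57, 7.81 and 7.58 in Rb1L/L arrays. The groups overlapped, and the Rb1L/L culture numbered 2 alone stood above all Rb1+/+ cultures. The log2 fold change was 0.06 (SE 0.08, adjusted p = 0.681), with a 95% interval of -0.13 to 0.24, from 0.917-fold to 1.18-fold. Cdt1 gained 0.54 on Cdc6 within arrays, and this difference did not overlap between genotypes (exact permutation p = 0.1, two-sided, the smallest possible).

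Gmnn, the gene of the licensing inhibitor, was the dimmest of the 10. Its log2 values were 5.52, 5.63 and 5.78 in Rb1+/+ and 5.85, 6.11 and 5.92 in Rb1L/L arrays, above the floor for testing of 5.081 and below the stricter floor of 6.452. The groups were apart by 0.07. The log2 fold change was 0.32 (SE 0.09, 95% interval 0.11 to 0.52, adjusted p = 0.0571), just missing the threshold, and Gmnn passed with the replicate block (adjusted p = 0.0376), after median centring (0.0351) and after quantile normalization (0.0378). RMA compresses differences of such dim clusters. The log2 difference of Cdt1 minus Gmnn was 3.77, 3.66 and 3.11 in Rb1+/+ and 3.97, 3.64 and 3.78 in Rb1L/L arrays. It overlapped between the genotypes (change 0.28, exact permutation p = 0.4, two-sided), and the change was 0.08 without Rb1+/+ replicate 3.

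Mcm10, which acts after loading, had log2 values of 7.95, 8.07 and 7.95 in Rb1+/+ and 8.14, 8.21 and 8.12 in Rb1L/L arrays. The groups were 0.05 apart and the 3 same-numbered differences were 0.19, 0.14 and 0.17. The log2 fold change of 0.17 (SE 0.06, 95% interval 0.03 to 0.30) did not pass (adjusted p = 0.112, or 0.1 with the replicate block).

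Among the members, the array numbered 2 tended to be the highest in both genotypes. In Rb1+/+ the array numbered 2 was highest for 6 of the 10 genes, and in Rb1L/L for 8 of 10. It was lowest for none in either genotype. The arrays numbered 1 and 3 were lowest for 6 and 4 genes in Rb1+/+, and for 4 and 6 in Rb1L/L. How often array 2 was highest over all tested genes was not counted. For 9 of the 10 genes the Rb1L/L culture exceeded the Rb1+/+ culture of its number in all 3 pairs. This held for 23.0% of tested genes. These are the same 9 genes whose groups did not overlap, for which any pairing of the arrays gives that outcome, so it adds no further result.

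The promoters of these genes were read next, because many of the genes are textbook targets of E2F. A part of E2F in the changes was not tested. The windows run from 250 bases before to 50 after the annotated start in RefSeq (GRCm38.p6), and 8 of the 10 genes were matched, Mcm7 with 2 starts; Mcm4 and Gmnn were not. The 7-base forms searched for E2F were TTCCCGC and TTCGCGC and TTGCCGC and TTGGCGC, on either strand and allowed to overlap. A form was found for 6 of the 8 genes, Mcm3, Mcm5, Mcm6, Mcm7, Cdc6 and Cdt1. That is 7 of the 9 windows; of all 32851 windows 9.57% held a form, and of 12184 tested genes with a window 17.4% did. The windows below are those of the gene that rose most, of Mcm7 at its first start, of Mcm5, which rose least and has 3 matches, of Mcm2, which rose and has none, and of Cdc6, which has 1 and did not pass. Capitals mark the E2F forms, read 5′ to 3′ along the gene.
Mcm6: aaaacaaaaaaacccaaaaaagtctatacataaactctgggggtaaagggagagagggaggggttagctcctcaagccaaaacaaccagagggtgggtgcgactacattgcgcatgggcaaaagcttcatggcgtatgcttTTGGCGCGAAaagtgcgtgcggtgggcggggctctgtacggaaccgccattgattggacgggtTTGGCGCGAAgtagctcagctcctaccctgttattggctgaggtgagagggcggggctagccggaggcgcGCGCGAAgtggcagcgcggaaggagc
Mcm7: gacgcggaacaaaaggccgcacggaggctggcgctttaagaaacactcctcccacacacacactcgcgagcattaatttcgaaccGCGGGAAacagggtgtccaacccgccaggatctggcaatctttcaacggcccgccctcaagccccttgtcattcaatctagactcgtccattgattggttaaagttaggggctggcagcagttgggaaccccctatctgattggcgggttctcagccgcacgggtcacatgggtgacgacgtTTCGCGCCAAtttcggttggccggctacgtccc
Mcm5: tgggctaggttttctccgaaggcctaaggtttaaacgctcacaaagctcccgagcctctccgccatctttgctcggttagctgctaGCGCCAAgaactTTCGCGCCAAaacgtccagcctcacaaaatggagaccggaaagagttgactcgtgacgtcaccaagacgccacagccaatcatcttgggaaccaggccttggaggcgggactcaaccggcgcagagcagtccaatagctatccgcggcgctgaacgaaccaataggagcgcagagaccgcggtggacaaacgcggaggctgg
Mcm2: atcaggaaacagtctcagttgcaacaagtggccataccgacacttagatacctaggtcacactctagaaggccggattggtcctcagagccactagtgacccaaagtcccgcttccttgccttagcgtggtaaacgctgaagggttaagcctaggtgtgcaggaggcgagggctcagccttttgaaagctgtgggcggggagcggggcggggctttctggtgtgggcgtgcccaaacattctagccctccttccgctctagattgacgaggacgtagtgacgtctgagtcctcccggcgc
Cdc6: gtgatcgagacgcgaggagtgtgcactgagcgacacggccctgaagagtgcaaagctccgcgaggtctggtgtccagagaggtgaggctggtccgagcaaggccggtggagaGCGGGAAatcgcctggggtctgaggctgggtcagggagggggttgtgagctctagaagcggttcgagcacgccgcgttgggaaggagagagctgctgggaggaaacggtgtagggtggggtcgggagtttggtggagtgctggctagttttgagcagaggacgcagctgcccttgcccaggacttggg

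The Mcm6 window (chr1:128359656-128359955, minus strand) held 5 matches, the most of the 9 windows. Of these, 4 form 2 overlapping pairs on opposite strands, which begin at -109 and -46 from the start. The Mcm7 window (chr5:138171834-138172133, minus strand) has 3, among them an overlapping pair from 18 on. The Mcm5 window (chr8:75109259-75109558, plus strand) has 3 matches between -164 and -149. The Cdc6 window (chr11:98907901-98908200, plus strand) has 1, at -138, and the Mcm2 window (chr6:88898731-88899030, minus strand) and that of Mcm10 have none. The Mcm10 window ends in ttggcg, all but the last letter of the form TTGGCGC, so a match across its edge would not be counted. By log2 fold change from the highest down, the windows held 5 matches for Mcm6 (0.83), 3 at the first and 1 at the second start of Mcm7 (0.64), 2 for Cdt1 (0.60) and 3 for Mcm3 (0.53). They held 0 for Mcm2 (0.38), 3 for Mcm5 (0.21), 0 for Mcm10 (0.17) and 1 for Cdc6 (0.06). No relation between the number of matches and the change was tested. CCAAT, the letters bound by NF-Y, was found in 7 of the 9 windows (37.4% of all windows), the GC box GGGCGG in 7 of 9 (35.7%) and the cell cycle element TTTGAA in that of Mcm2 alone (17.9%). GC content was 48.7% to 66.7% in the members' windows, with a median of 52.7% in all windows. A match describes letters and was not tested as a binding site.

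**Figure D4:**
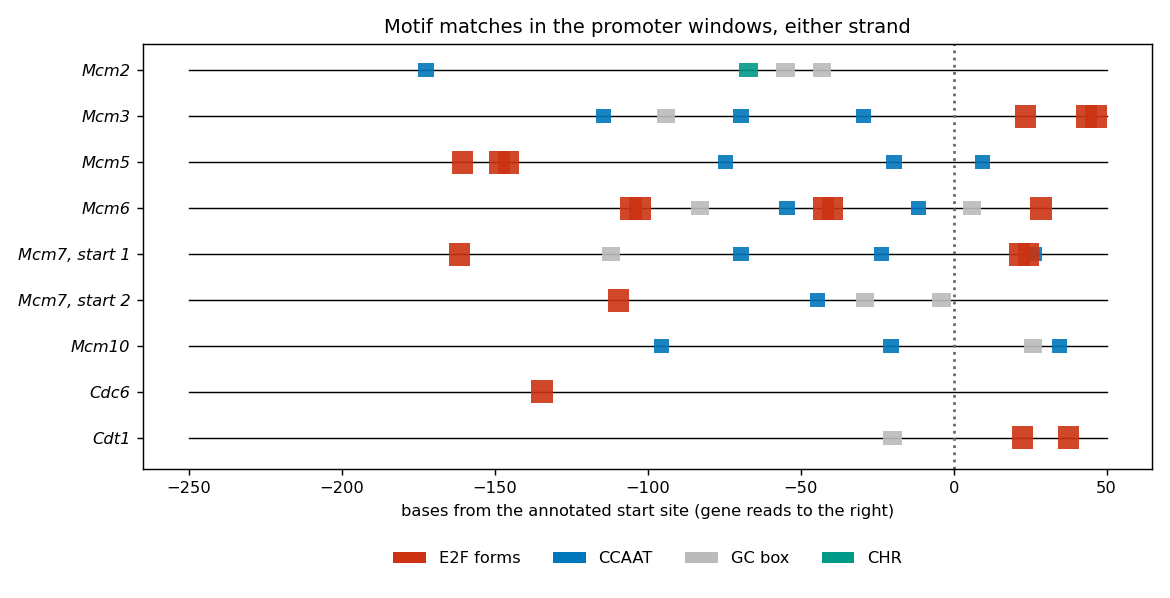
Matches on either strand to the E2F forms, CCAAT, the GC box and the cell cycle element (CHR) are drawn to scale against distance from the annotated start for the 9 promoter windows. Mcm6 has the most E2F forms, 5, and the windows of Mcm2 and Mcm10 have none.

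Mcm7 is also the host of 3 microRNA hairpins, Mir106b, Mir93 and Mir25, which lie inside it on the same strand; no other member holds one in the table used. The products of Mir106b and Mir93 share a seed (bases 2 to 8, in capitals), and that of Mir25 has another.
mmu-miR-106b-5p: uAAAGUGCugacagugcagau
mmu-miR-93-5p: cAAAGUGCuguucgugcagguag
mmu-miR-25-3p: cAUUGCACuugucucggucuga
The clusters named for the hairpins read host or precursor RNA and not the mature strands. None passed the test while their host rose by 0.64. Mir25 stood at log2 7.06, 7.28 and 6.95 in Rb1+/+ and 7.47, 7.40 and 7.26 in Rb1L/L arrays. The groups overlapped by 0.02, and the log2 fold change was 0.28 (SE 0.09, adjusted p = 0.0924, or 0.0466 with the replicate block). Mir93 changed by 0.02 (SE 0.08) and Mir106b, near the floor, by 0.12 (SE 0.11).

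The series concerns genes transcribed away from each other from a shared promoter region, so the direct neighbours of the members were looked up. Of 20 neighbouring protein-coding genes, 16 were tested, 2 rose and none fell; of all tested genes 7.10% rose and 5.08% fell. Where strands were given, 4 neighbours lay head to head with a member. Head to head here describes strand and order alone. The distance between the starts was not measured, so whether such neighbours share a promoter region was not tested. Ap4m1, a subunit of a vesicle coat adaptor, faces Mcm7 and had a change of 0.29 (SE 0.09, adjusted p = 0.083, or 0.0247 with the replicate block). Tpra1 beside Mcm2 (-0.02), Paqr8 beside Mcm3 (-0.11) and Piezo1, an ion channel gene, beside Cdt1 (-0.17) did not pass, while Mcm2, Mcm3 and Cdt1 rose.

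Cops6, a subunit of the COP9 signalosome, meets Mcm7 tail to tail and rose. It had log2 values of 11.53, 11.58 and 11.48 in Rb1+/+ and 12.06, 11.99 and 11.95 in Rb1L/L arrays. The groups were well apart, with a change of 0.47 (SE 0.06, adjusted p = 0.00443). Prkdc encodes a DNA repair kinase and is known to share its promoter with Mcm4. It had log2 values of 7.21, 7.23 and 7.52 in Rb1+/+ and 7.29, 7.28 and 7.41 in Rb1L/L arrays. These overlapped (change 0.01, SE 0.09, adjusted p = 0.972), while Mcm4 rose by 0.26. Ube2v2, on the other side of Mcm4, rose by 0.31 (SE 0.08, adjusted p = 0.0372) with its brightest cluster. That call was kept in 1 of the 6 fits with a single array left out, that without Rb1+/+ replicate 2, and the change was 0.15 (adjusted p = 0.204) with the mean of its clusters. Wipf2, an actin regulator gene beside Cdc6, had a change of -0.39 (SE 0.11, adjusted p = 0.057, or 0.0157 with the replicate block).

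The other genes of the pathway were read as 4 lists. Of 7 origin recognition genes, Orc1 rose and Orc3 fell; the median change was 0.07. Orc1, the subunit whose level is known to vary over the cycle, had log2 values of 7.82, 7.70 and 7.61 in Rb1+/+ and 8.30, 8.18 and 8.0 in Rb1L/L arrays. All Rb1L/L arrays were higher (change 0.45, SE 0.09, adjusted p = 0.0199), a call kept in 3 of the 6 fits without 1 array. Orc3 fell by 0.30 (SE 0.08, adjusted p = 0.0418), a call kept in none of those 6 fits. Of the 7 estimates 5 were above 0, as were 43.6% of those of all tested genes, of which 7.10% rose and 5.08% fell.

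The next list holds factors that start the loaded helicase or travel with it. Of 16 such origin firing genes 8 rose, 8 did not pass and none fell, and the median change was 0.26. All 16 estimates were above 0, as were 43.6% of those of all tested genes, of which 7.10% rose. Tipin, which steadies the fork, rose by 0.50 (SE 0.08, adjusted p = 0.00842), and Mtbp, which works in helicase activation, by 0.50 (SE 0.09, adjusted p = 0.0148). Cdc45, a part of the active helicase, rose by 0.30 (SE 0.06, adjusted p = 0.0198) and Donson, which helps to build it, by 0.43 (SE 0.09, adjusted p = 0.0204). Gins1, Gins2, Gins4 and Wdhd1, named after their values were seen, rose by 0.40, 0.30, 0.32 and 0.29 (adjusted p = 0.0295, 0.0461, 0.039 and 0.0382). In that order, these calls were kept in 2, 0, 0 and 1 of the 6 fits without 1 array. The kinase genes Cdc7 (0.09, SE 0.06) and Dbf4 (0.21, SE 0.09), whose products switch on the ring, did not pass, nor did Recql4 (0.08), Ticrr (0.09) and Topbp1 (0.18), named after their values were seen. The count of 8 was 3, 4 and 4 without Rb1+/+ replicate 1, 2 and 3 and 2, 1 and 5 without Rb1L/L replicate 1, 2 and 3.

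Among 17 tested genes of licensing control and turnover, 4 rose and none fell, with a median change of 0.13. Over all tested genes 7.10% rose and 5.08% fell. Cdc20, an activator of the anaphase-promoting complex, rose by 0.56 (SE 0.10, adjusted p = 0.0125). Ccne1 and Cdk2, the cyclin and kinase that drive entry into S phase, rose by 0.42 (SE 0.06, adjusted p = 0.00593) and 0.41 (SE 0.06, adjusted p = 0.00746). Kat7, a histone acetyltransferase that works with licensing, rose by 0.30 (SE 0.07, adjusted p = 0.0268). The calls of Cdc20, Ccne1 and Cdk2 held in all 6 fits without 1 array. That of Kat7 was kept without Rb1+/+ replicate 2 or Rb1L/L replicate 3 and missed the threshold without any of the other 4 arrays (adjusted p = 0.0713 to 0.0915). The count of 4 was 0 without both arrays numbered 1 and 2 without both numbered 2 or 3. Dtl and Skp2, whose products mark Cdt1 for destruction, had changes of 0.10 (SE 0.09) and 0.03 (SE 0.09).

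Of 5 tested relatives and partners of the ring, Mcm9 rose by 0.28 (SE 0.05, adjusted p = 0.0176), Mcmbp by 0.31 (SE 0.08, adjusted p = 0.0411) and none fell. The shares over all tested genes were 7.10% that rose and 5.08% that fell. Mcm8, the partner of Mcm9 in recombination repair, had a change of 0.10 (SE 0.07). Mcmbp, which binds and stores ring subunits, kept its call in none of the 6 fits without 1 array, and the count of 2 was 1 without any single Rb1+/+ array or Rb1L/L replicate 3 and 0 without Rb1L/L replicate 1 or 2.

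Of 11 tested markers of dividing cells, 5 rose, 6 did not pass and none fell, with a median of 0.30 and 10 estimates above 0. Over all tested genes 7.10% rose, 5.08% fell and 43.6% of the estimates were above 0. Cdk1 rose by 0.41, Aurka by 0.52, Birc5 by 0.49 and Plk1 by 0.38 (adjusted p = 0.0112 to 0.0276). Among those that did not pass, named after their values were seen, were Pcna, the sliding clamp of replication (0.01, adjusted p = 0.913), the cyclin gene Ccna2 (-0.01, adjusted p = 0.954) and Mki67 (0.12, adjusted p = 0.372). The others were Top2a (0.37, adjusted p = 0.0631, or 0.0259 with the replicate block), Foxm1 (0.21, adjusted p = 0.147) and Bub1 (0.18, adjusted p = 0.439). For Top2a and Foxm1 every Rb1L/L array was above every Rb1+/+ array. The mean of all 11 tested markers was log2 10.08 to 10.38 in Rb1+/+ and 10.51 to 10.59 in Rb1L/L arrays, without overlap. How often the means of other gene lists of this size stay apart was not computed. The count of 5 was 3, 5 and 3 without Rb1+/+ replicate 1, 2 and 3 and 2, 1 and 3 without Rb1L/L replicate 1, 2 and 3. The part of these markers in the rise of the licensing genes was not tested.

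**Figure D5:**
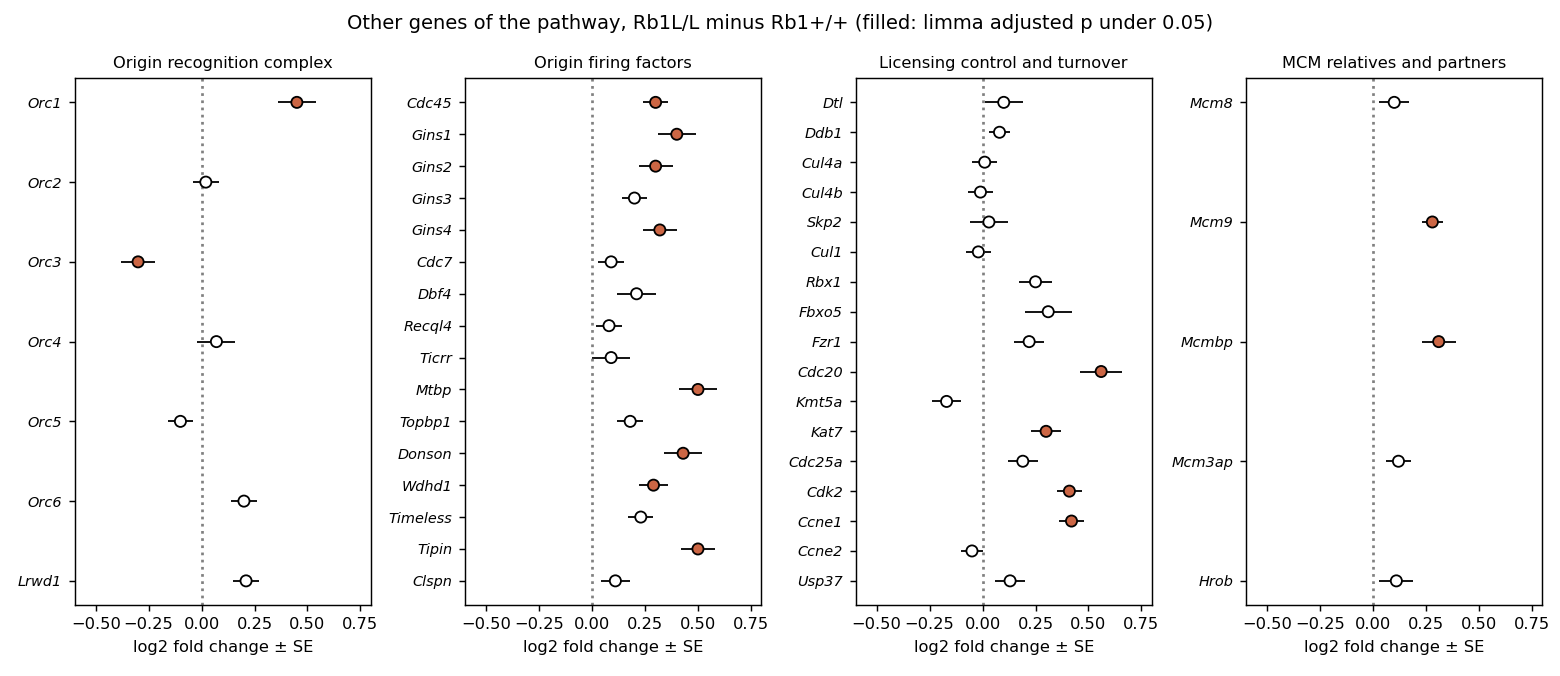
The log2 fold changes, Rb1L/L minus Rb1+/+, are plotted with their moderated SE for the 4 other lists of the pathway, filled where limma's adjusted p is under 0.05. All 16 origin firing genes lie above 0, whereas the origin recognition genes fall on either side.

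The tested genes whose profile over the 6 arrays was most like the mean of Mcm2 to Mcm7 were Srsf3, Rbm43, Nudt1, Gadd45g and Brip1os. Likeness was the root mean square difference of mean-centred log2 values, 0.012 for Srsf3 and 0.029 for Brip1os. Srsf3, a splicing factor gene, had log2 values of 11.11, 11.23 and 11.15 in Rb1+/+ and 11.65, 11.73 and 11.60 in Rb1L/L arrays, a change of 0.49. The ring's own subunits were at 0.060 for Mcm3 to 0.184 for Mcm6 from their mean, and Cdc6 at 0.217 was the least alike of the 10 members. Srsf3 and the other near genes were picked as the closest of all tested genes outside the members. Their small distances and similar changes follow from that choice. They cannot be weighed against the distances of the subunits, which were not picked in this way.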

How the data were processed

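The authors deposited log2 expression values, 1 per transcript cluster and array, made with RMA; Partek is also named, per the submitters' processing notes, without a version. RMA puts all arrays on 1 distribution, so a change shared by most genes is lost. Values ran from log2 2.28 to 14.16; arrays have no depth, and their number limits the precision.

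Clusters with 1 gene symbol in the platform annotation (21789 of 35556) were used, with symbols updated by Entrez ID for 21698; the brightest cluster stood for a gene. Genes were tested if their mean lay above log2 5.081, the 90th percentile over 1194 receptor genes of smell and the vomeronasal organ. Genotypes were compared with limma 3.58.1 (lmFit, eBayes) in R 4.3.3, with Benjamini-Hochberg adjustment over 15462 genes and a threshold of 0.05; 1883 genes (12.2%) passed. SEs are moderated. The p-values measure the spread between the 3 cultures of a genotype. Same-numbered arrays deviated together (correlations 0.30, 0.24 and 0.30), and the design text speaks of pairs, so the number was also fitted as a block. The procedure was tested on simulated data.

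The members and lists were chosen with earlier results of these data known. Named genes were all members, their neighbours, up to 4 passing genes per list, 8 set pathway genes, and the 5 nearest profiles. Hairpins, subunit pairs and motifs were added with the data in view. No source used here names the array annotation's build; coordinates are those of the RefSeq promoter table.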

Additional observations from a re-analysis of the deposited data

How the results depend on the processing

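Of the 10 members' log2 fold changes, only that of Cdc6, which passed in no setting, changed sign (lowest -0.02), over 8 settings that keep all arrays and 9 that leave arrays out; 139 of 169 values kept their side of the threshold, 27 lost it and 3 gained it. With the replicate block 7 members rose, Gmnn in place of Mcm5 (adjusted p = 0.0573), and 2232 genes passed in all; without a filter on dim genes Mcm5 missed (0.0578). The count of members was 8 after median centring and after quantile normalization, and 0 to 6 with arrays left out. Their median log2 fold change was 0.30 to 0.41 with arrays left out.

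Counts of all genes fell to between 92 and 1441 with arrays left out. Origin recognition genes that rose were 2 with trended variances or array weights, 3 after median centring or the stricter filter, and 0 to 1 with arrays left out. With arrays left out, 0 to 5 firing factors, 0 to 5 control genes, 0 to 1 relatives of the ring and 0 to 5 proliferation markers rose. The Cdt1 minus Gmnn change ran from 0.08 to 0.43. Median centring moved the median of all genes by 0.02.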

Other observations

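Over all tested genes with a promoter window, an E2F form was found for 26.7% of the 864 that rose and for 12.4% of the 643 that fell, against 17.4% of all 12184. Base composition differs between promoters, and these shares are a description.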
